A study of Mus musculus with 32 samples.

Results

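The WT late 2-cell mouse embryo was compared directly with the WT egg, over all genes that reached an FPKM of 1 in at least 3 of the 9 libraries of these stages. FPKM is the number of read fragments relative to the length of a gene and to the depth of its library. The rule kept 10423 of the 54532 genes in the table and used no difference between the stages. At its edge, 1744 genes reached that level in exactly 3 libraries, with a median highest value of 2.792 FPKM, and 1397 genes just outside reached it in exactly 2, with a median highest value of 1.728 FPKM.

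The 9 libraries came from 6 late 2-cell embryos and 3 metaphase II eggs, each lysed singly in 5 uL and amplified through 15 PCR cycles with the SMART-seq v4 chemistry, which primes cDNA on poly(A) tails. Zygotes were cultured in KSOM medium, and late embryos were taken 48 hours after the hCG injection that triggers ovulation. All WT animals were Trp53 flox/flox on a mixed Bl6/C57 background, that is, they carried the floxed allele without its deletion. The stage in between was represented by 8 WT early 2-cell embryos collected 28 to 32 hours after hCG. A second pair of groups, with 6 late 2-cell embryos labelled Trp53 MZ-KO and 3 eggs labelled Trp53 KO, came from animals whose allele lacks exons 2 to 10 after germ cell deletion by Ddx4::Cre. The labels do not give the number of females behind a group, so the p-values measure the spread between single eggs and embryos, which may share a mother.

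The mouse egg is filled with maternal mRNA made during oocyte growth and does not transcribe its genome while it completes meiosis. After fertilization this store is translated, deadenylated and degraded, and the embryonic genome becomes active in a minor wave in the zygote and a major wave in the 2-cell embryo. The level of an mRNA in the late 2-cell embryo is therefore what is left of the maternal copy plus what the embryo has made. In libraries of whole single embryos primed on poly(A), a lower level and a shorter poly(A) tail cannot be told apart.

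Between 7989 and 9417 genes reached 1 FPKM in late embryos, and between 6088 and 6532 in eggs. From the value of 1 read in low genes, 16500000 to 24100000 reads stood behind the scale of the late libraries and 14900000 to 22100000 behind that of the eggs. Late embryos resembled each other less than eggs did, with median rank correlations across genes to their own group of 0.827 to 0.849 in late embryos and 0.914 to 0.924 in eggs. Values of all genes summed to between 214530 and 268559 FPKM in late libraries and between 136532 and 147597 in eggs, so the choice of scaling shifts every difference. The authors' values were divided by the genomic span of each gene, introns included. Genes that overlap on either strand may therefore share reads, and how reads in overlaps were assigned was not tested. Of 6 genes picked to check the egg label, 5 were lower in late embryos and Zp3 was not called. Of 6 for the late label, Alppl2, Zscan4d and Polr1b rose, Obox3 fell, and Klf17 and Nop56 were not called. All 13 mRNAs of the mitochondrial genome were listed at 0 in every library.

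More than 3 in 4 genes differed between the late 2-cell embryo and the egg. On log2(FPKM + 1) with limma and Benjamini-Hochberg adjustment over the 10423 genes, 8248 passed an adjusted p of 0.05 (79.1%), of which 5421 were higher (52%) and 2827 lower (27.1%) in late embryos. The median difference was 0.84. It was 0.71 with libraries scaled by the median ratio and 0.44 with every library scaled to the same sum of FPKM, where the split was 4547 higher and 3646 lower. Tested against a change of 2-fold, 4268 genes passed (40.9%), with 2838 higher (27.2%) and 1430 lower (13.7%). All 6 late embryos lay above all 3 eggs in 4888 genes (46.9%) and below them in 2557 (24.5%).

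The genes fell into unequal groups by where they were found. In all 9 libraries 2999 genes reached 1 FPKM. Among these 1209 were higher and 856 lower in late embryos, and the median difference was 0.22. Another 4020 genes reached that level in at least 3 late embryos and in no egg, and 3576 of them were called higher. In the opposite pattern, 931 genes reached it in all 3 eggs and in no late embryo, and all 931 were called lower, with a median difference of −1.49. These last counts partly follow from the patterns themselves.

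**Figure D1:**
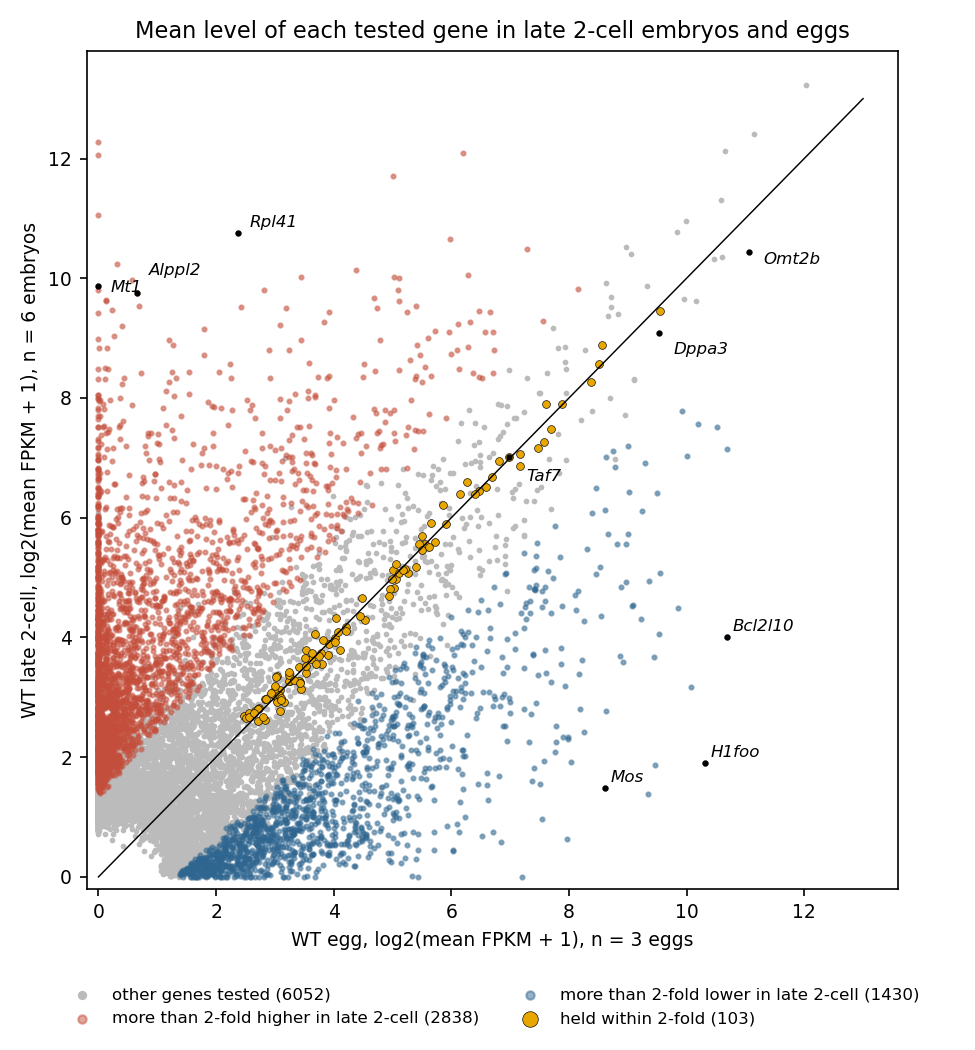
Mean level of each of the 10423 genes in 6 WT late 2-cell embryos (vertical axis, log2 of mean FPKM + 1) against 3 WT eggs (horizontal axis, same scale), with the line of equal levels. Red points are the 2838 genes more than 2-fold higher, blue points the 1430 more than 2-fold lower, yellow points the 103 held within 2-fold. Many red points stand at or near 0 in eggs, and none of the 103 is held with equal FPKM sums.

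The abundant messages of the egg were mostly replaced. Of the 100 most abundant protein-coding genes of the egg, 18 were also among the 100 most abundant of the late embryo. In late embryos 87 of the 100 were lower, 5 were higher and 50 stood below 10% of their egg level. Together they took 2.8% to 4.5% of all FPKM in late embryos and 24.1% to 25.5% in eggs. The 100 most abundant of the late embryo took 10.3% to 12.4% in late embryos and 7.8% to 8.7% in eggs, and 30 of them had a mean under 1 FPKM in eggs. These sets were chosen by their level in one of the stages compared, so a change away from that stage is partly built in.

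Among protein-coding genes without a clone-based symbol, the kind named here, the largest rises were in metallothioneins, in genes of the 2-cell stage and in a ribosomal protein gene. Some genes with clone-based symbols differed by more, among them the annotated pseudogene Gm5612, by 12.24 on the log2(FPKM + 1) scale. Mt1, which encodes a small protein that binds zinc and copper, had 818, 1160, 917, 829, 943 and 967 FPKM in the late embryos and was listed at 0 in all 3 eggs. Its neighbour Mt2 had 552, 674, 968, 701, 627 and 723 FPKM in late embryos, against 0, 0.503 and 0 in eggs. Both genes were thus among the 10 most abundant named coding genes of the late embryo and nearly without reads in the egg. On the log2(FPKM + 1) scale, Mt1 differed by 9.87 ± 0.16 (SE; limma adjusted p = 1.61e-10) and Mt2 by 9.25 ± 0.22 (adjusted p = 9.37e-10). Where the eggs are at 0, such a difference depends on the pseudocount of 1 and is no fold change. At the early stage Mt1 averaged 10.5 FPKM, between 1.11 and 55.1, so most of the rise came after that collection.

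Mt1 and Mt2 lie side by side on chromosome 8, and their promoters are shown because both rose together from almost no reads. Metallothionein genes are classically induced through metal response elements, short sites bound by the zinc-sensing factor MTF-1. The windows run from 250 bases before to 50 bases after the start of each gene in RefSeq (GRCm38.p6), on the plus strand, at chr8:94178839-94179138 for Mt1 and chr8:94172368-94172667 for Mt2. Capitals mark each match to TGCNCNC, the core of that element, on the strand shown or, read as GNGNGCA, on the other strand. The motif was chosen after the values were seen.
Mt1: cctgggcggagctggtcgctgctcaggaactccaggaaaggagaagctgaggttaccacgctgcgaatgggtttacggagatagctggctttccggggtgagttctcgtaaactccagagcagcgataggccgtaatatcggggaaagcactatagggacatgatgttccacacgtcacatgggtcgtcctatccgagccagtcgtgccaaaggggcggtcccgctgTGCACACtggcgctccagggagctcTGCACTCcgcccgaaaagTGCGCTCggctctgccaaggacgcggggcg
Mt2: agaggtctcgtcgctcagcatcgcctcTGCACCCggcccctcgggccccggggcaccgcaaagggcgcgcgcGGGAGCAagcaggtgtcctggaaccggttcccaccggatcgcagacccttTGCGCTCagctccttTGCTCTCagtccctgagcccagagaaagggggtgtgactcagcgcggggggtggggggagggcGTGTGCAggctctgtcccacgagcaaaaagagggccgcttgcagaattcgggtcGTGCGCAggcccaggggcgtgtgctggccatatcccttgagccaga
The Mt1 window held 3 matches and the Mt2 window 6, with 3 on each strand. Of 27025 promoter windows, 50.3% held at least 1 match, 6.96% held at least 3 and 0.23% held at least 6. These matches describe the letters only; no binding was measured.

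Alppl2, a placental-type alkaline phosphatase and a known marker of the late 2-cell stage, had 781, 1046, 878, 840, 794 and 842 FPKM in late embryos, against 0.79, 0.084 and 0.874 FPKM in eggs. The groups lay far apart, with a difference of 9.13 ± 0.20 (adjusted p = 7.54e-10). Rpl41, a very short protein of the large ribosomal subunit, had between 1313 and 2326 FPKM in late embryos, against 5.16, 2.9 and 4.41 FPKM in eggs. The other genes among the 10 largest rises of this kind were Obox8, Tdpoz5, Usp17lb, Rfpl4b, Obox6 and Trim43a. Obox8 had 373 to 631 FPKM in late embryos and was listed at 0 in all 3 eggs. Rfpl4b spread most, with 332, 97.4, 67.4, 291, 280 and 165 FPKM in late embryos and at most 0.073 FPKM in eggs.

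The largest falls were in genes of the oocyte programme. H1foo, the oocyte form of linker histone H1, had 4.73, 2.11, 1.29, 2.49, 1.36 and 4.33 FPKM in late embryos, against 1062, 1120 and 1622 FPKM in eggs, a difference of −8.48 ± 0.33 (adjusted p = 1.83e-08). Mos, the kinase that starts the MAP kinase cascade holding the egg in metaphase II, had 3.51, 0.23, 0, 4.47, 0.91 and 1.66 FPKM in late embryos, against 290, 434 and 449 FPKM in eggs. H1foo was thus low but present in each late embryo, and Mos was listed at 0 in 1 of them. Mos differed by −7.38 ± 0.53 (adjusted p = 7.63e-07).

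These falls had different courses through the early 2-cell embryo. Mean H1foo was 1268 FPKM in eggs, 42.7 in early embryos and 2.72 in late embryos. Mos likewise averaged 391 FPKM in eggs, 8.96 in early embryos and 1.80 in late embryos. Bcl2l10, a Bcl-2 family protein abundant in oocytes, averaged 1638 FPKM in eggs, 1493 in early embryos and 15.0 in late embryos. Rfpl4, an oocyte RING finger protein, averaged 1073 FPKM in eggs, 981 in early embryos and 8.00 in late embryos. H1foo and Mos were therefore low before the early stage was collected, and Bcl2l10 and Rfpl4 lost their signal between the early and late collections. Rgs2, a regulator of G protein signalling, stood between, at 645 FPKM in eggs, 244 in early embryos and 1.62 in late embryos.

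The remaining large falls were Obox2, Zar1, Dazl, Pabpn1l and Gdf9. Zar1 and Dazl act in the storage and translation of maternal mRNA, Pabpn1l is an embryonic poly(A) binding protein, and Gdf9 is the growth factor by which the oocyte signals to its granulosa cells. Gdf9 had 21.2, 11.5, 7.37, 7.93, 14 and 8.56 FPKM in late embryos, against 470, 744 and 883 FPKM in eggs. Zar1 averaged 0.957 FPKM in late embryos and 186 FPKM in eggs.

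**Figure D2:**
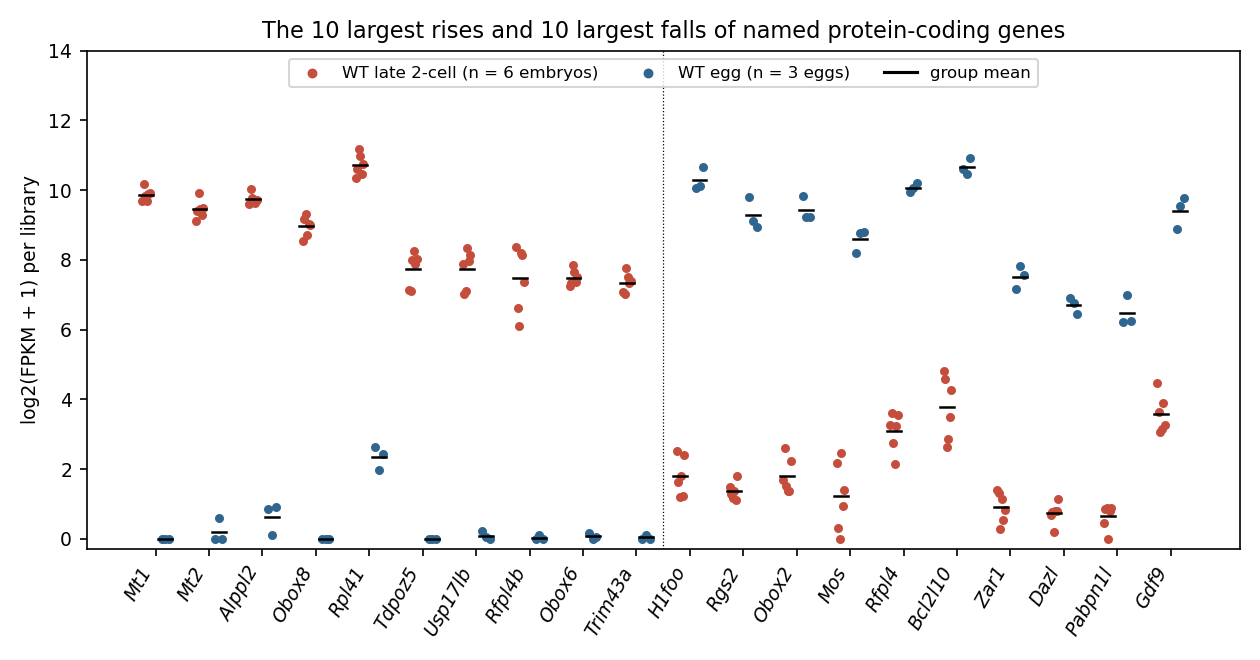
The 10 largest rises and the 10 largest falls by the naming rule, as log2(FPKM + 1) in each of 6 late 2-cell embryos (red, left of each pair) and 3 eggs (blue), with bars at the group means. The naming rule required the groups to stand apart, as they did in 46.9% (higher) and 24.5% (lower) of all 10423 genes. Rfpl4b, Mos and Bcl2l10 spread most among late embryos.

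Stored maternal mRNAs are often kept with short tails and woken through the cytoplasmic polyadenylation element, a short U-rich site in the 3′ untranslated region bound by CPEB1. Of the 10 largest falls, 7 carry TTTTAT or its longer form TTTTAAT in the 3′ untranslated region of the annotated principal transcript. Mos, Zar1 and Pabpn1l, with untranslated regions of 126, 146 and 263 bases, carry neither. Over all 6486 coding genes compared, TTTTAT was present in 53.0% and TTTTAAT in 28.1%. Among 963 genes more than 2-fold lower, the shares were 61.7% and 32.7%. The share with either form was not computed, so the 7 of 10 has no matching share and is not shown to be particular to the largest falls. Other spellings of the element were not searched. The element nearest to the transcript end is shown in capitals for 4 of the 7 genes, within 30 bases of the strand of the gene (mm10).
H1foo: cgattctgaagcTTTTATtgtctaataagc
Rfpl4: gaatgctttcctTTTTATttgctataatat
Bcl2l10: cccttaatacatTTTTAATaacttcaaatt
Gdf9: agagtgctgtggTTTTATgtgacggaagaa
The sites lie at chr6:115950157-115950186 on the plus strand for H1foo, chr7:5109910-5109939 on the minus strand for Rfpl4, chr9:75351579-75351608 on the plus strand for Bcl2l10 and chr11:53437854-53437883 on the plus strand for Gdf9. Their distances to the transcript end were 63, 62, 42 and 39 bases in that order. In the carriers not shown, the distance was 56 bases for Obox2, 373 for Dazl and 825 for Rgs2. Genes with early and with late falls both carried the element.

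Over all coding genes, 3′ untranslated regions differed between the classes. TTTTAT was present in 42.1% of the 1634 with a region among the genes more than 2-fold higher in late embryos, in 61.7% of 963 more than 2-fold lower, in 66.2% of 71 held genes and in 53.0% of all 6486. Among regions of 500 to 1500 bases the shares were 48.1% for higher, 63.7% for lower, 65.5% for held and 54.5% for all genes. TTTTAAT was present in 21%, 32.7%, 38% and 28.1% in the same order of classes, and the AU-rich core ATTTA, which can share letters with TTTTAT, in 54.5%, 70.4%, 74.6% and 64.2%. The Pumilio element TGTANATA was present in 17.6% of genes higher, 23.7% of genes lower and 35.2% of held genes, against 22.5% of all genes compared. Among regions of 500 to 1500 bases these shares were 17.9%, 19.6%, 37.9% and 20.4%, so genes lower no longer exceeded all genes. The held class had 29 regions of that length, and none of the 103 held genes stayed held with equal FPKM sums. All were searched on the transcribed strand.

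Base composition and length moved with those shares. The median region was 637 bases long with 44.9% GC in genes more than 2-fold higher, 833 bases with 41.3% GC in genes more than 2-fold lower, and 952 bases with 39.8% GC in held genes. The median genomic span was 10047 bp for genes higher, 16688 bp for genes lower and 16121 bp for held genes, against 15602 bp over all coding genes tested. The part of GC content and of the span-based FPKM scale in these shares was not tested.

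Genes of the oocyte were lower as groups. In the list for the zona, oocyte growth and gamete interaction, 10 of 14 tested members fell and 1 rose, with a median difference of −2.12 against 0.84 over all genes. Bmp15, partner of Gdf9, averaged 11.96 FPKM in late embryos and 167 FPKM in eggs. Cd9, a membrane protein needed for sperm fusion, was the member that rose, with 3.31 to 10.4 FPKM in late embryos against 0.436 to 0.577 FPKM in eggs. Zp3, the zona protein that first binds sperm, averaged 20.5 ± 6.6 FPKM (SD, n = 6) in late embryos and 13 ± 3.54 FPKM (SD, n = 3) in eggs, and was not called (limma adjusted p = 0.106), but was called higher without WT late embryo 1 (limma adjusted p = 0.0285).

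The subcortical maternal complex is an assembly of oocyte proteins that embryos need to pass the 2-cell stage. Of its 8 members, 7 fell, by between 1.31 and 4.76 on the log2 scale, while 27.1% of all genes tested fell. Zbed3 had 66.7, 28.6, 10.1, 13.5, 11.7 and 47.2 FPKM in late embryos, against 578, 693 and 690 FPKM in eggs. Its late embryos thus spread over more than 6-fold while all stayed below the eggs. Khdc3 was not called, with 0.396 to 7.34 FPKM in late embryos and 1.6 to 3.99 FPKM in eggs. Tle6 fell by 1.44 (adjusted p = 0.0259), a call that was lost without WT egg 2 or WT egg 3 and without the filter on low values.

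All 12 tested members of the list of oocyte Nlrp and F-box genes fell, each by more than 2-fold, with a median of −3.30. A fall of more than 2-fold was called in 13.7% of all genes tested. Fbxw28 had 4.16 to 8.07 FPKM in late embryos against 140, 185 and 163 FPKM in eggs. Nlrp4a had 0.427 to 0.997 FPKM in late embryos against 31.9, 36.9 and 38.2 FPKM in eggs. Members of these clustered families are near copies of each other, and reads may be shared between them. Of the 7 Obox homeobox genes tested, which form another cluster on chromosome 7, Obox1, Obox2, Obox3, Obox5 and Obox7 fell and Obox6 and Obox8 rose. The annotated span of Obox1 overlaps those of Obox2 and Obox3, so the falls of these genes may rest on shared reads. Obox6 had 150 to 228 FPKM in late embryos against at most 0.118 FPKM in eggs, and Obox5 had 11.1 to 47.6 FPKM in late embryos against 483 to 640 FPKM in eggs.

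Genes of meiosis and of mRNA decay were divided, and most of those of mRNA storage were lower in late embryos. Among 24 tested genes of meiotic arrest and M phase, 11 fell, 7 rose and 2 were held, and with equal FPKM sums 14 fell and 4 rose. Of all 10423 genes, 27.1% fell and 52% rose, and with equal FPKM sums 3646 fell and 4547 rose. The cyclins Ccnb1 and Ccnb2, the kinase Wee2, which keeps the oocyte arrested, and Fbxo43, the inhibitor that keeps metaphase II in place, were among those that fell. Ccnb1 averaged 39.99 FPKM in late embryos and 172.3 FPKM in eggs. Cdk1, its catalytic partner, averaged 66.7 FPKM in late embryos and 6.31 FPKM in eggs. Cdc20 and Ube2c, activator and ubiquitin-conjugating enzyme of the anaphase promoting complex, also rose, and Ube2c had 94.3 to 133 FPKM in late embryos against 2.32 to 5.22 FPKM in eggs. Plk1 and Tpx2, which act in spindle assembly, were held.

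Of 11 tested genes of maternal mRNA storage, 7 fell and 1, Ddx6, rose by 0.60 (adjusted p = 0.0307), a call lost under 8 of the alternatives tried, among them both other scalings. Of 22 tested genes of deadenylation and decay, 11 fell and 8 rose, and with equal FPKM sums 12 fell and 4 rose. For both lists, the shares over all genes tested were 27.1% lower and 52% higher. Btg4, the adaptor that brings the CCR4-NOT deadenylase to maternal mRNA, had 1.81 to 10.0 FPKM in late embryos against 133, 100 and 128 FPKM in eggs. The deadenylase subunits were divided: Cnot7, Cnot6l, Cnot11 and Cnot3 fell, while Cnot1 and Cnot10 were among those that rose, by 1.27 and 1.33 on the log2 scale. Ythdf2, a reader of methylated adenosine that marks mRNA for decay, had 13 to 22.2 FPKM in late embryos against 1.95 to 2.34 FPKM in eggs.

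Factors that shape the chromatin of the zygote also moved apart. Dnmt1, the maintenance DNA methyltransferase, averaged 0.746 FPKM in late embryos and 10.9 FPKM in eggs, and its partner Uhrf1 averaged 0.631 FPKM in late embryos and 8.68 FPKM in eggs. Tet3, the maternal methylcytosine oxidase, had 0.228 to 0.90 FPKM in late embryos against 10.9 to 11.9 FPKM in eggs. Dppa3, which protects the maternal genome from that oxidation, stayed abundant, with 391, 604, 669, 581, 510 and 504 FPKM in late embryos against 859, 710 and 649 FPKM in eggs. Its groups overlapped and the difference of −0.45 ± 0.19 missed the threshold (adjusted p = 0.0506), but it passed with either other scaling. Of 16 tested histone variants and chaperones, 8 rose and 5 fell, against 6 and 7 with equal FPKM sums. The shares over all genes tested were 52% higher and 27.1% lower, and the list median of 0.84 equalled that of all genes. H2afz, a histone H2A variant, had 88.8 to 146 FPKM in late embryos against 2.02 to 2.54 FPKM in eggs.

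Genes known to be induced by the 2-cell transcription factor Dux were higher almost without exception. Of 34 members 28 were tested, of which 27 rose and 1, Tcstv1, fell, with a median of 3.34. Over all genes tested, 52% were higher. A member near 0 in eggs passes the filter only through the late embryos, so its direction is partly built in. Gm4850 had 323 to 980 FPKM in late embryos against 0, 0 and 0.963 FPKM in eggs. Zscan4d, a telomere-associated factor of the 2-cell stage, had 23.2, 7.25, 7.4, 34.2, 15.7 and 23.4 FPKM in late embryos against 0.297 to 0.731 FPKM in eggs. In early embryos it averaged 17.5 FPKM, with 3 to 67.5 FPKM. Tcstv1 had 0.621 to 4.45 FPKM in late embryos against 22 to 30 FPKM in eggs. Most of these are multicopy genes whose reads may be shared between copies.

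Among transcription factors of the later embryo, 16 of 28 passed the filter on low values, of which 10 rose and 2 fell, against 9 and 4 with equal FPKM sums. The shares over all genes tested were 52% higher and 27.1% lower. Dppa4, a DNA-binding protein of pluripotent cells, had 32.5 to 40.8 FPKM in late embryos against 0.013 to 0.069 FPKM in eggs. Pou5f1, the pluripotency factor Oct4, had 2.23 to 6.64 FPKM in late embryos against 27.3 to 34.2 FPKM in eggs, with 41.5 to 55.7 FPKM in early embryos. Nanog, Sox2 and Cdx2 were among the 12 that did not pass the filter. Klf17 was abundant at both stages, at 63.9 ± 9.68 FPKM (SD, n = 6) in late embryos and 90.1 ± 46.2 FPKM (SD, n = 3) in eggs. It was not called on the authors' scale, but was called lower with equal FPKM sums (limma adjusted p = 0.00911) and without WT egg 1 (limma adjusted p = 0.0141).

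The ribosome and the nucleolus showed the broadest rise among the housekeeping groups. Of 76 tested genes of cytosolic ribosomal proteins, 73 rose, 59 of them by more than 2-fold, with a median of 2.41. Among all genes tested, 52% rose, 27.2% rose by more than 2-fold and the median was 0.84. The summed level of the list was 2617 to 3999 FPKM in late embryos and 91.0 to 95.6 FPKM in eggs. Rpl41 alone had 1313 to 2326 FPKM of this sum in late embryos and 2.9 to 5.16 FPKM in eggs. Rpl15 and Rpl31 fell and Rpl17 was not called. Rpl15 had 8.95 to 15.2 FPKM in late embryos against 15.0 to 22.3 FPKM in eggs, and its call was lost without WT egg 2 or WT egg 3. Ribosomal protein genes have many processed copies, so the levels of single members are uncertain.

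Of 35 tested genes of the nucleolus and ribosome biogenesis, 30 rose and 5 were not called, against 24 higher and 2 lower with equal FPKM sums. Nhp2, a protein of the box H/ACA particles that modify ribosomal RNA, had 147 to 230 FPKM in late embryos against 1.99, 0.263 and 1.39 FPKM in eggs. Polr1c, a subunit of RNA polymerases I and III, averaged 92.0 FPKM in late embryos and 1.44 FPKM in eggs. Ncl, which encodes nucleolin, was not called, at 25.2 FPKM in late embryos and 29.6 FPKM in eggs. Of the small nucleolar RNAs, 100 of 167 were higher (59.9%) and 2 lower (1.2%), against 52% and 27.1% of all genes tested. Most of them lie in introns of host genes whose reads they may share.

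Of 37 tested translation initiation factors, 27 rose, 4 fell and Eif5b was held, and with equal FPKM sums 21 rose and 9 fell. Eif3g, a subunit of the eIF3 scaffold, had 42.6 to 60 FPKM in late embryos against 2.08 to 3.17 FPKM in eggs. Eif1b had 2.3 to 15.2 FPKM in late embryos against 50.5 to 70.4 FPKM in eggs. Of 57 tested nuclear genes of the respiratory chain and ATP synthase, 37 rose and 6 fell, against 27 and 13 with equal FPKM sums. For both lists, the shares over all 10423 genes were 52% higher and 27.1% lower. With equal FPKM sums 4547 of these were higher and 3646 lower. Ndufa2 and Ndufa10, both of complex I, moved apart, with 49.1 to 73.7 FPKM in late embryos against 0.454 to 1.94 FPKM in eggs for Ndufa2, and 0.39 to 0.737 FPKM in late embryos against 5.33 to 9.0 FPKM in eggs for Ndufa10.

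Related enzymes of fuel use also moved apart. Of 17 tested genes of glycolysis and pyruvate use, 11 rose and 3 fell, against 10 and 5 with equal FPKM sums. Among all genes tested, 52% rose and 27.1% fell. Mitochondrial malate dehydrogenase, Mdh2, had 17.9 to 41.2 FPKM in late embryos against 0.024 to 0.176 FPKM in eggs, while its cytosolic counterpart Mdh1 averaged 2.67 FPKM in late embryos and 15.8 FPKM in eggs. Ldhb, the lactate dehydrogenase subunit of the oocyte, had 5.15 to 12.1 FPKM in late embryos against 49.6 to 79.9 FPKM in eggs.

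Other housekeeping groups were mixed, and their balance, like that of all genes, depended on the scaling. Of all 10423 genes, 52% rose and 27.1% fell, and with equal FPKM sums 4547 rose and 3646 fell. The splits in this paragraph were near these. In the proteasome 19 of 33 tested members rose and 9 fell, against 12 and 11 with equal FPKM sums. Psma7, a subunit of the 20S core, was an extreme case, with 4.22, 5.52, 5.85, 4.79, 5.05 and 10.7 FPKM in late embryos against 320, 310 and 239 FPKM in eggs, while Psmb5, the subunit with chymotrypsin-like activity, had 21 to 31.2 FPKM in late embryos against 0.14 to 0.448 FPKM in eggs. In the spliceosome 18 of 37 rose and 8 fell, against 16 and 15 with equal sums. In the list of RNA polymerase II and general factors, 22 of 39 rose and 11 fell, against 14 and 15 with equal sums. The shared subunit Polr2e had 74.0 to 138 FPKM in late embryos against 6.42 to 8.71 FPKM in eggs, and Gtf2a2, the small subunit of TFIIA, had 1.51 to 3.2 FPKM in late embryos against 30.2 to 52.5 FPKM in eggs.

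The medians of 3 lists changed sign with equal FPKM sums. For G1 to S and DNA replication the median was 0.41 and became −0.17, for heat shock and chaperonins 0.59 and −0.20, and for the cytoskeleton 0.50 and −0.17. The median over all genes went from 0.84 to 0.44. Single members differed far more. Ccne1, the cyclin of S-phase entry, had 32.5 to 60.6 FPKM in late embryos against 0.406 to 0.761 FPKM in eggs, and Rpa3, the small subunit of replication protein A, had 0.784 to 5.48 FPKM in late embryos against 49.3 to 111 FPKM in eggs. Hspa8, the constitutive Hsp70, rose by 3.42 and Hsp90aa1 fell by 2.08. The tubulin Tubb5 rose by 4.73 and Actb fell by 1.34.

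**Figure D3:**
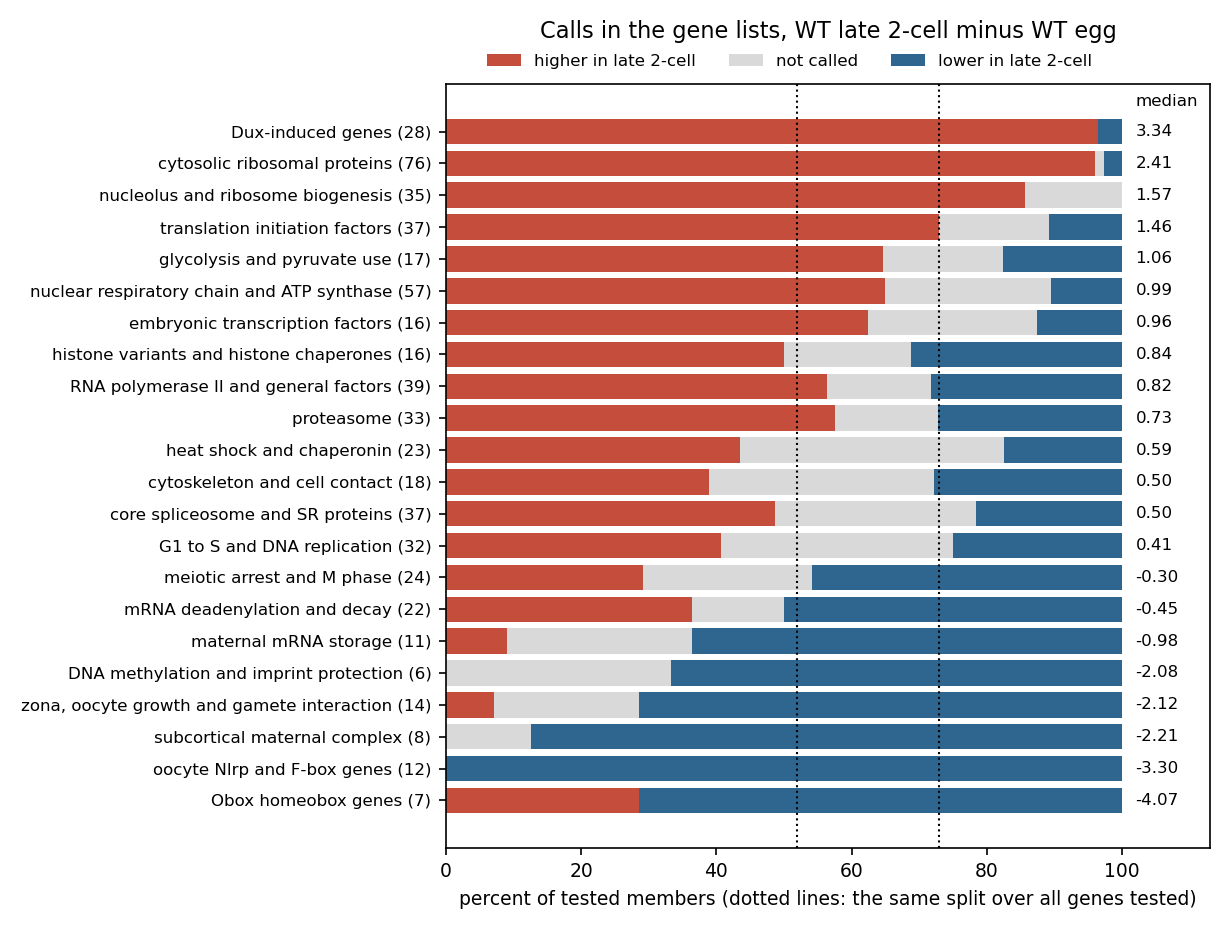
Share of the tested members of each gene list called higher (red), not called (grey) or called lower (blue) in 6 WT late 2-cell embryos against 3 WT eggs, with the number tested in brackets and the median log2(FPKM + 1) difference at the right. Dotted lines mark the split over all 10423 genes, 52% higher and 27.1% lower; with equal FPKM sums the medians for heat shock, the cytoskeleton and G1 to S are negative.

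Markers of other cells that could accompany an egg or embryo were low but not all absent. Of 15 markers of cumulus and granulosa cells, 2 were tested, and the summed level was 5.797 to 14.81 FPKM in late embryos and 0.339 to 0.397 FPKM in eggs. Ptx3, Pgr, Inha and Nr5a1 were at 0 in all 9 libraries, and Amhr2 alone had 5.18 to 11.6 FPKM in late embryos and was listed at 0 in all eggs. The 10 sperm markers summed to 10.46 to 28.91 FPKM in late embryos and 0.395 to 1.244 FPKM in eggs, nearly all from Prm1 in late embryos, while Prm1 was listed at 0 in all 3 eggs and Smcp and Spata18 were at 0 in both stages. The 10 blood markers summed to 15.13 to 23.9 FPKM in late embryos and 2.45 to 3.558 FPKM in eggs, mostly from Hba-a1 and Hba-a2 in late embryos and from Cd68 in eggs, with Ptprc, Hbb-bt and Cd3e at 0. In WT early embryos Amhr2 averaged 0.124 FPKM, Prm1 0.133, Hba-a1 1.17, Hba-a2 1.07 and Cd68 2.55. Prm1 overlaps 2 other annotated genes, with which it may share reads. The part of such cells in the differences was not tested.

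A gene that is not called is not thereby shown to persist. Persistence was tested as a relative level within 2-fold in both directions, with a mean of at least 5 FPKM over the group means, and genes that passed are called held. By that test 103 genes were held (0.988%), 72 of them protein-coding, at mean levels of 5.012 to 723.5 FPKM. For the other 2072 genes that were neither called nor held, the 95% interval of the difference had a median width of 1.38 on the log2 scale. All 103 reached 1 FPKM in all 9 libraries.

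Held status rested on the authors' scaling. With equal FPKM sums the held set had 102 genes, none of them shared with the 103, and 93 of the 103 were called lower in late embryos, with a median of −0.74. With median-ratio scaling 72 were held, 35 of them among the 103. The count was 0 with any 1 of the 3 eggs left out, 0 with a pseudocount of 0.1 and 0 with a filter of 5 FPKM. Held is therefore a statement about levels as the authors scaled them, and the amount per embryo was not measured.

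The most abundant held genes by the naming rule were Taf7, Med31, Csnk2b, Cks2, Brix1, Ubl5, Med10, Oaz1, Prc1, Ing1, Rack1 and Serf2. Of these 12, 10 overlap another annotated gene, with whom they may share reads, and Brix1 and Ing1 do not. Taf7, a subunit of the general factor TFIID, had 112, 103, 129, 154, 143 and 125 FPKM in late embryos against 124, 140 and 111 FPKM in eggs. Med31, a subunit of the Mediator complex that links activators to RNA polymerase II, had 85.8, 94.7, 88.0, 78.3, 96.3 and 71.0 FPKM in late embryos against 108, 90 and 64.3 FPKM in eggs. Their groups overlapped and the means differed by 0.02 ± 0.18 for Taf7 and −0.01 ± 0.20 for Med31. Csnk2b, the regulatory subunit of casein kinase 2, had 76.2 to 121 FPKM in late embryos against 71.9 to 82.8 FPKM in eggs. With equal FPKM sums Taf7 differed by −0.77 and Csnk2b by −0.48.

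A held level did not mean that the level was flat. The early 2-cell embryos, which the held test did not use, were set against the mean of egg and late embryo in 1 contrast over the 17 WT libraries. Of 12178 genes tested there, 4650 were lower (38.2%) and 3648 higher (30%) at the early stage, and of the 10423 genes of the egg and late comparison these were 44.6% lower and 23.2% higher. Of the 103 held genes, 72 were lower at the early stage, 9 were higher and 22 were not called. For 28 the dip reached 1 or more on the log2 scale. Held genes needed a mean of 5 FPKM over eggs and late embryos and no level at the early stage, so a dip is partly favoured. The WT early libraries summed to between 118131 and 148978 FPKM, and the early contrast was not run with equal FPKM sums.

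Sumo2, a ubiquitin-like modifier, was the deepest. It had 10.5, 9.9 and 8.61 FPKM in eggs, 0.139 to 0.522 FPKM in the 8 early embryos and 7.54, 11, 11.8, 10.8, 9.78 and 10.8 FPKM in late embryos. No early embryo reached the lowest egg or late embryo, and the contrast was −3.03 (limma adjusted p = 2.89e-12). Taldo1, an enzyme of the pentose phosphate pathway, averaged 8.48 FPKM in eggs, 0.635 in early embryos and 9.72 in late embryos. Ing1, a reader of methylated histone H3, averaged 41.2 FPKM in eggs, 7.84 in early embryos and 35.1 in late embryos. Tmem59 and Med20 had the same course, and so did Rack1, a ribosomal scaffold protein, at 36.2 FPKM in eggs, 8.44 in early embryos and 34.2 in late embryos. For these genes the level in the late embryo followed a loss of signal, in reads primed on poly(A), at the stage between.

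The opposite course was rarer among held genes, and the contrast reached 1 or more in 3. Rab7, a small GTPase of late endosomes, had 4.41 to 9.21 FPKM in eggs, 19.1 to 27.5 FPKM in early embryos and 5.63 to 8.21 FPKM in late embryos. Cs, citrate synthase, averaged 9.66 FPKM in eggs, 20.2 in early embryos and 8.69 in late embryos. Zfp280b, Dcaf7 and Cox5a were also higher at the early stage, by 0.55, 0.47 and 0.37. Plk1 was held and was not called in that contrast, with 9.31 to 18.4 FPKM in eggs, 8.93 to 24.4 FPKM in early embryos and 11.8 to 18.6 FPKM in late embryos.

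**Figure D4:**
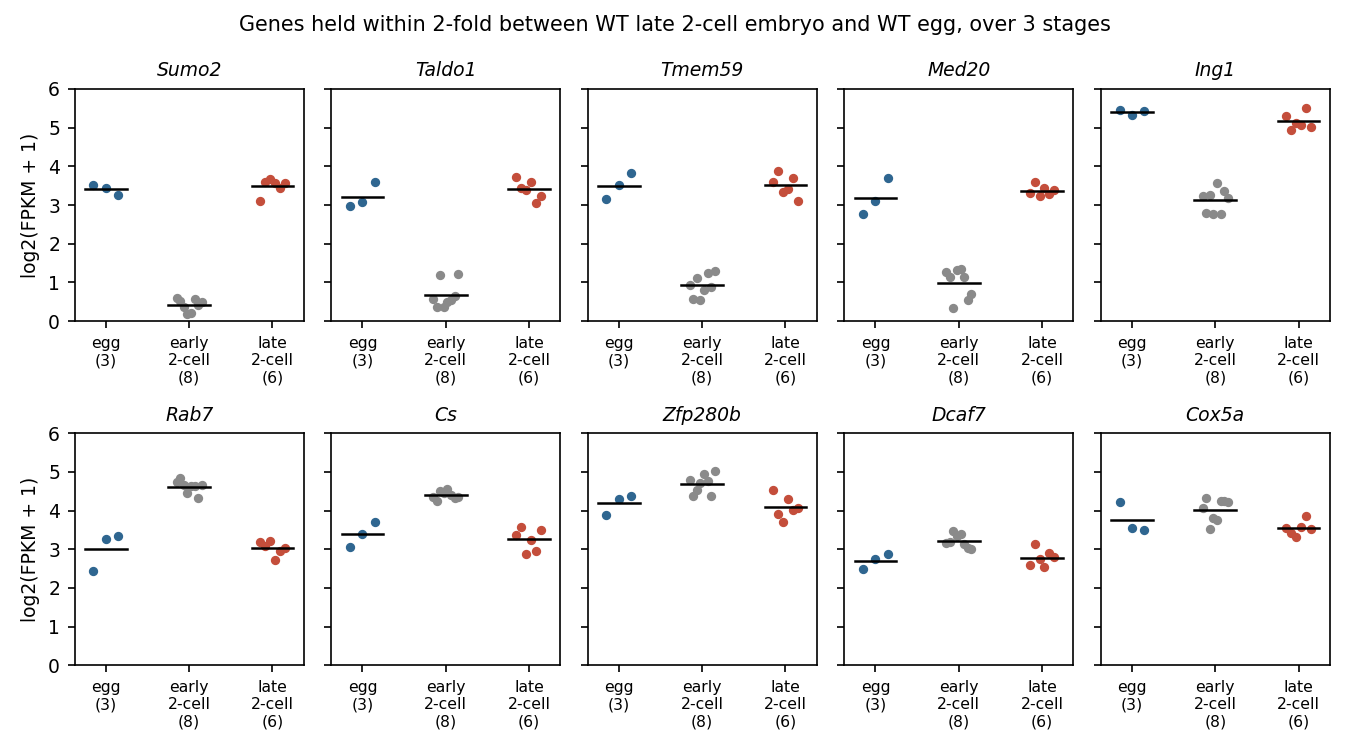
Held genes with the lowest (top) and highest (bottom) early contrast, as log2(FPKM + 1) per library in 3 eggs, 8 early and 6 late 2-cell embryos of WT, with bars at the means. Sumo2 drops to 0.343 FPKM and Rab7 stands at 23.6 FPKM on average at the early stage; with equal FPKM sums 93 of the 103 held genes are lower in late embryos than in eggs.

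The early embryo also placed the net changes in time. For genes more than 2-fold higher in late embryos, the median share of the net log2 change already present at the early stage was 9.4% (quartiles 1.6% and 24.9%). For genes more than 2-fold lower the median was 19% (quartiles −0.5% and 41.6%). In 9.1% of the rises and 17.7% of the falls, more than 50% of the net change was present at the early stage. In 19.5% of the rises and 25.7% of the falls, the early level lay on the far side of the egg level.

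The same stages were available in the libraries labelled knockout. Trp53 itself averaged 2.82 ± 1.38 FPKM in late embryos labelled MZ-KO (SD, n = 6) and 3.24 ± 2.31 FPKM in WT late embryos (SD, n = 6). It averaged 8.19 ± 1.75 FPKM in eggs labelled KO (SD, n = 3) and 7.86 ± 2.13 FPKM in WT eggs (SD, n = 3). Its level thus does not bear out the knockout label. A value per gene does not show which exons its reads came from, so the deletion of exons 2 to 10 was not checked. The groups are therefore called by their labels. In these libraries 7610 of the 10423 genes were called (73%), 5008 higher (48%) and 2602 lower (25%) in late embryos. Of the 5421 genes higher in WT, 4509 (83.2%) were called higher there and 6 lower. Of the 2827 lower in WT, 2322 (82.1%) were called lower there and 14 higher. Across genes, which are not independent, the differences of both pairs of groups had a Pearson r of 0.925.

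The test of the difference between the stage differences called 764 genes (7.33%), 394 of them higher (3.78%) and 370 lower (3.55%) in the labelled knockout pair than in the WT pair. This count was between 387 and 502 when any 1 of the 6 eggs was left out. Of the 57 tested nuclear genes of the respiratory chain and ATP synthase, 17 were among the 764. Calhm3, a calcium homeostasis modulator family member, had the largest difference, −4.51 (adjusted p = 5.1e-04), with a stage difference of 0.00 in labelled knockout libraries and 4.51 in WT. Its WT late embryos had 39.3, 11.7, 8.06, 46.4, 18.2 and 32.0 FPKM. Hspa8 rose by 0.75 in the labelled knockout pair and 3.42 in WT. Psmb10, an immunoproteasome subunit, had a stage difference of 4.79 in the labelled knockout pair and 1.74 in WT. Among the 10 largest rises, Tdpoz5 and Rfpl4b passed that test. The lowest adjusted p was 0.185 among the 10 largest falls, for Dazl, and 0.0581 among the 12 most abundant held genes, for Ing1.

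**Figure D5:**
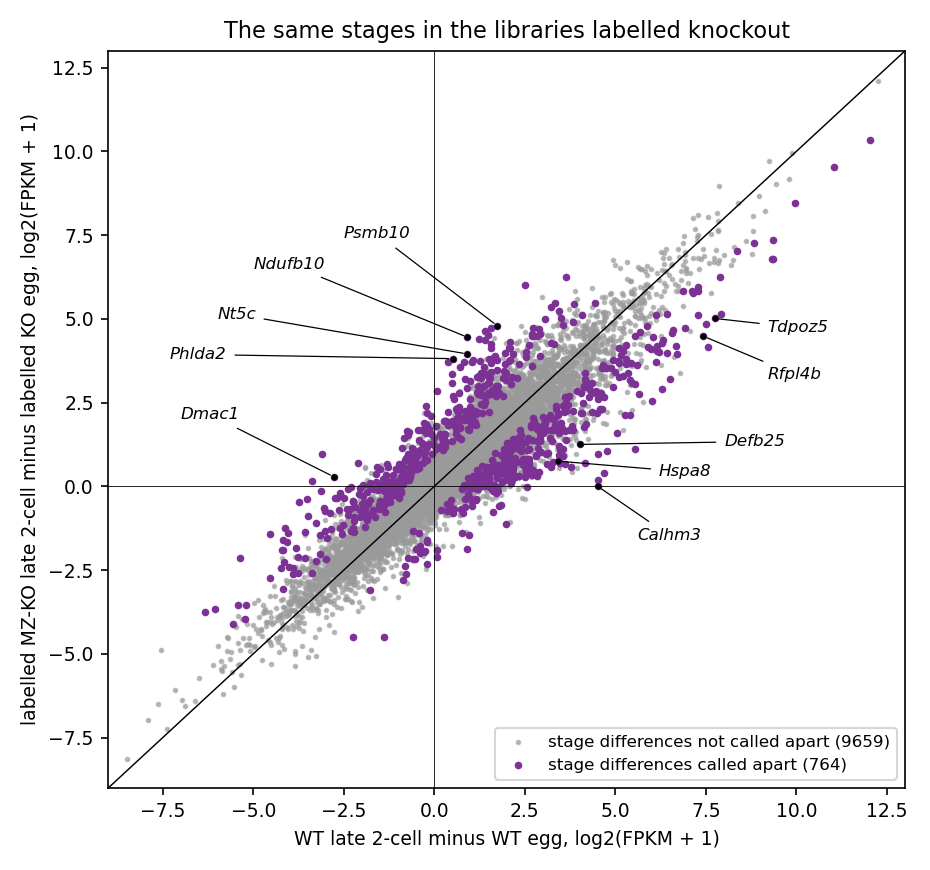
Late minus egg difference of each of the 10423 genes in the libraries labelled knockout (vertical axis, log2(FPKM + 1)) against WT (horizontal axis, same scale), with the line of equal differences. Purple points are the 764 genes whose stage differences were called apart; the 10 genes named are the 5 largest in each direction.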

How the data were processed

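The authors' deposited table gives an FPKM value per gene and library. Per the submitters' processing notes, TopHat2, DESeq, DESeq2 and mm10 were used; versions and annotation are not given in the sources used here. In short genes at least 99.4% of low values in the WT eggs and 99.7% in the WT late embryos were whole multiples of 1 read, within 0.1 read, when length was the genomic span, so depth was read from that step.

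From the deposited FPKM values, log2(FPKM + 1) was tested with limma 3.58.1 (R 4.3.3, intensity trend, robust moderation, Benjamini-Hochberg adjustment) over genes at 1 FPKM in at least 3 of the 9 libraries. Changes over 2-fold were tested with treat, and held genes with a pair of one-sided tests against ±1, a mean of 5 FPKM and adjusted p below 0.05. Count models were not used, since the unit is FPKM. The fit of WT late embryos against WT eggs was tested on simulated data, and the other contrasts were not. The named genes are the 10 largest rises and falls with groups apart and a mean of 10 FPKM in the higher group, the 12 most abundant held genes, the extremes and held member of each list, every member of lists under 14, the 5 extremes at each end of the early contrast among held genes and of the labelled knockout contrast, and the 10 most abundant genes per stage; clone-based symbols enter only through lists. The members, lists and tests were chosen with earlier results of these data known. A few further list members were named after their values were seen. Column headers give the group and no replicate number, so libraries are numbered by column order. GENCODE M21 gave biotypes, spans and transcripts for 54495 of 54532 identifiers. Promoter motifs were not compared between classes, since RefSeq promoters matched 76.5% of the genes more than 2-fold higher, under the 80% needed. Alternatives were another pseudocount, filter, scaling, moderation and set of stages, and each library left out. The counts and medians of gene lists under other scalings were added after seeing the data.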

Additional observations from a re-analysis of the deposited data

Results flagged for a closer look

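In 3 of 132 named genes, 1 of the 6 WT late embryos stood apart from the other 5, with a gap to its neighbour of more than 0.625 of the group's range on the log2(FPKM + 1) scale. Chance gives this in about 1 of 20 groups. Psma7 had 10.7 FPKM in WT late embryo 6 and 4.22 to 5.85 FPKM in the others. Arpc2, a subunit of the actin-nucleating Arp2/3 complex, had 10.2 FPKM in WT late embryo 1 and 5.88 to 7.01 FPKM in the others. Polr1b, a subunit of RNA polymerase I, had 3.45 FPKM in WT late embryo 3 and 1.19 to 1.81 FPKM in the others.

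For 16 named genes, the late minus egg difference was called apart between the pair labelled knockout and the WT pair. The values are the labelled knockout difference minus the WT difference on the log2(FPKM + 1) scale. It was positive for Ndufb10 (3.54), Phlda2 (3.29), Psmb10 (3.05), Nt5c (3.04), Dmac1 (3.04), Eif1b (2.38), Hba-a2 (2.13), Hba-a1 (1.94), Psma7 (1.87) and Khdc1b (1.70). It was negative for Calhm3 (−4.51), Rfpl4b (−2.95), Defb25 (−2.76), Tdpoz5 (−2.73), Hspa8 (−2.68) and H2afz (−0.98). Calhm3, Defb25, Tdpoz5 and Rfpl4b rose in WT late embryos, Dmac1, Eif1b, Psma7 and Khdc1b fell in them, and Phlda2 and Ndufb10 were not called there.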

How the results depend on the processing

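No paired analysis was possible because the columns carry no replicate numbers. With a filter of 5 FPKM in 3 libraries, 4093 of 4668 genes were called. The held count was 0 with a pseudocount of 0.1, 315 without a filter (31497 genes tested), 0 with the filter of 5 FPKM and 192 in a fit over the 3 WT stages; leaving out each library gave 0 to 90, with 0 for each egg and 33 to 47 without WT late embryos 2, 4, 5 or 6, where fewer samples widen each interval. Leaving out each library gave 7545 to 8252 genes called, 3789 to 4302 past 2-fold, 7883 to 8343 in the early contrast (8298 with all), 6974 to 7582 in the labelled knockout pair and 387 to 979 in the difference between pairs (764 with all). That last count was 502, 429 and 387 without labelled KO egg 1, 2 and 3, and 410, 436 and 490 without WT egg 1, 2 and 3. With equal FPKM sums the medians of G1 to S (−0.17), heat shock (−0.20) and the cytoskeleton (−0.17) turned negative. So did Taf7 (−0.77), Csnk2b (−0.48), Brix1 (−0.55), Oaz1 (−0.68), Prc1 (−0.75), Pcna (−0.71), Arpc2 (−0.69), Sumo2 (−0.65), Tmem59 (−0.73), Dcaf7 (−0.61) and Rab7 (−0.69). This follows from the higher FPKM sums of the late libraries. The early contrast of Mdh2 became 0.16 with a pseudocount of 0.1 (limma adjusted p = 0.54); the cause was not tested. Of 132 named genes, 97 kept the same call of the late minus egg difference under every alternative. The labels do not say which eggs or embryos shared a mother.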

Other observations

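Processed and mitochondrial pseudogenes held some of the highest values of the table; those named here were chosen after their values were seen. Pseudogenes of the processed class took 39.4% to 46.0% of all FPKM in late embryos and 29.3% to 30.3% in eggs, but 5.5% to 7.5% of the reads in late embryos and 2.9% in eggs, since these genes are short and have no introns in their span. Gm10925, Gm28437 and Gm28661 on chromosome 1, whose every 31-base word occurs in mt-Atp6, mt-Co3 and mt-Co2, averaged 9546, 5464 and 4443 FPKM in late embryos and 4202, 2260 and 1607 FPKM in eggs, while the mitochondrial genes themselves were listed at 0. The part of mitochondrial reads in these values was not tested.

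Several held or changed coding genes have such a copy with a higher value. Gm15452, with 100% of its words in Cks2, averaged 1314 ± 243 FPKM in late embryos and 1558 ± 302 FPKM in eggs (SD, n = 6 and 3), against 58.4 and 58.8 FPKM for Cks2. Gm12481, with 100% in Serf2, averaged 1275 FPKM in late embryos and 1405 FPKM in eggs. Both copies, like both coding genes, missed the threshold (limma adjusted p = 0.276 and 0.552). Oaz1-ps, with 90.5% in Oaz1, was higher, at 1751 FPKM in late embryos and 911 FPKM in eggs (difference 1.01 ± 0.26, adjusted p = 0.00464), while Oaz1 was held. Gm8203, with 100% in H2afz, averaged 4372 FPKM in late embryos and 72.3 FPKM in eggs, and Gm12346, with 83.3% in Hsp90aa1, averaged 182 FPKM in late embryos and 1472 FPKM in eggs, the direction of each coding gene.

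Gm12617 and Gm5612 averaged 4271 ± 1007 and 4972 ± 1318 FPKM in late embryos (SD, n = 6) and were listed at 0 in all 3 eggs. Gm12617 shared no 31-base word with a coding transcript, and Gm5612 shared 31.6% of its words with Map1lc3b, an autophagy protein that averaged 107 FPKM in late embryos and 9.52 FPKM in eggs. They were among the highest values of the late embryo.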
